A study of Mus musculus with 12 samples.

Results

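The immunoglobulin light chain genes described here are the kappa constant gene Igkc and 6 lambda genes, namely the constant genes Iglc1, Iglc2 and Iglc3 and the variable segments Iglv1, Iglv2 and Iglv3. They were chosen by gene name in an RNA sequencing table of 41128 genes. Of the 7 names, 5 have values (Igkc, Iglc2, Iglv1, Iglv2 and Iglv3), while Iglc1 and Iglc3 were not analysed here. The table covers 12 libraries of C57BL/6J mouse spleen in 4 groups of 3, all from mice aged 6 to 8 weeks. The groups are CD43- resting B cells of females, CD43- resting B cells of males, naive CD4+CD62L+ T cells of females and naive CD4+CD62L+ T cells of males. The labels give no treatment or genetic change for any group. The T cells were enriched with beads and sorted on a flow cytometer as CD62L high, CD44 low and CD25 negative. The series describes the replicates as pools of male or female mice, so p-values measure the spread between pools.

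An antibody is built from heavy chains and light chains, and each light chain is either kappa or lambda. A developing B cell joins a variable segment to a joining segment by DNA rearrangement, and the joined exon is then spliced to a constant exon, so a B cell normally transcribes a productive light chain of a single type. In mice most B cells carry kappa, and the lambda locus is small, with few variable segments that each feed only the joining and constant genes downstream of them. T cells do not rearrange light chain genes, and their libraries served here as the background against which the B cell values were read.

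Values are adjusted TPM as deposited, that is, a share of transcripts corrected for transcript length and then rescaled between libraries by the authors. Totals of adjusted TPM ran from 561020 to 1453940 per library and read depth is unknown, so precision was taken from the interval deposited with each value. Between 11122 and 11543 genes per library reached an adjusted TPM of 1. All 8 B cell markers examined were higher in B cells and all 5 T cell markers were higher in T cells. Of all genes tested, 31.4% and 41.6% were called in these directions. In all T cell libraries 3 B cell markers were under an adjusted TPM of 1, as were 4 T cell markers in all B cell libraries. Those markers passed the filter given below through the cell type where they are high, so this count is a description. Differences between groups are on the log2(adjusted TPM + 1) scale, which understates the change of low values, and were tested with limma over 12520 genes that reached an adjusted TPM of 1 in at least 3 libraries, with Benjamini-Hochberg adjustment. In bulk samples, fewer cells of a type and less RNA per cell cannot be told apart.

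In the GENCODE M21 annotation of GRCm38, Igkc lies on the plus strand of chromosome 6 (chr6:70726435-70726966) as a single exon. The lambda genes lie on the minus strand of chromosome 16 within about 199 kb. In the direction of transcription, Iglv2 (chr16:19260401-19260859) comes first, Iglv3 (chr16:19241207-19241690) starts 19.2 kb later and Iglc2 (chr16:19198396-19200351) starts 60.5 kb later. Iglv1 (chr16:19085017-19085500) follows at 175.4 kb, Iglc3 (chr16:19065230-19065681) at 195.2 kb and Iglc1 (chr16:19061618-19062071) at 198.8 kb. Iglv2 and Iglv3 thus lie upstream of all 3 constant genes, whereas Iglv1 lies upstream of Iglc3 and Iglc1 only. The same annotation places an antisense gene, 2010309G21Rik, on the plus strand across Iglv1, Iglc3 and Iglc1. The library kit keeps the strand, but whether strand was used in quantification is not given in the sources used here.

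**Figure D1:**
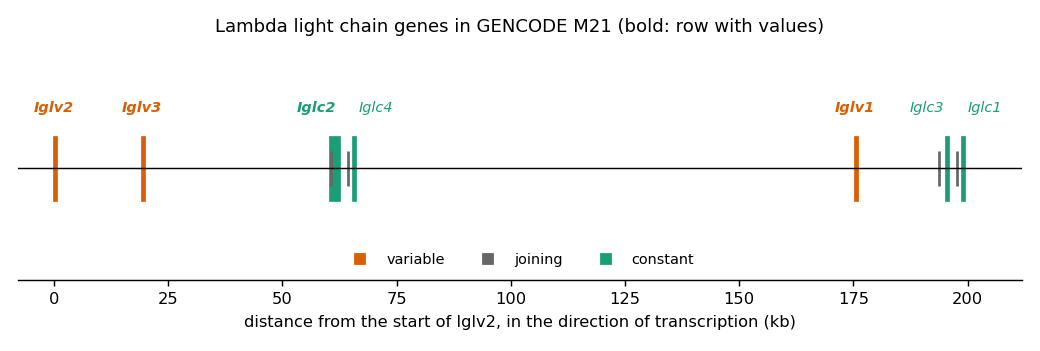
Map of the lambda light chain genes drawn to scale, with distance from the start of Iglv2 on the horizontal axis in kb and boxes for variable, joining and constant genes. Genes in bold (Iglv2, Iglv3, Iglc2 and Iglv1) have values, and Iglv1 sits 175.4 kb from Iglv2, between Iglc2 and the pair Iglc3 and Iglc1.

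The constant genes are shown first because their likeness decides which reads the Iglc2 row can hold. The stretches below are the first 150 aligned coding bases from the M21 transcripts, 5′ to 3′ on the coding strand, and capitals mark bases that differ from Iglc2. They cover chr16:19198703-19198852 for Iglc2, chr16:19065532-19065681 for Iglc3 and chr16:19061922-19062071 for Iglc1, all on the minus strand.
Iglc2: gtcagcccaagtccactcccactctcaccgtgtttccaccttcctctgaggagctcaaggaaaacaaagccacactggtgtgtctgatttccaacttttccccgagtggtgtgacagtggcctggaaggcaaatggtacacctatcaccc
Iglc3: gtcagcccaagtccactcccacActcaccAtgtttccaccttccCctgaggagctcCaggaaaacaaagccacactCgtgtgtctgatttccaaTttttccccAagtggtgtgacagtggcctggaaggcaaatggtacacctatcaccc
Iglc1: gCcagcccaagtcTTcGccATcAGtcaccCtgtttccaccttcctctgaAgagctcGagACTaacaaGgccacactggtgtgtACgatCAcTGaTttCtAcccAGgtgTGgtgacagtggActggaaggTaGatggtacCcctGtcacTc
Iglc3 differed from Iglc2 at 7 of these 150 bases and Iglc1 at 34. Over the whole aligned coding sequence of 314 bases, 303 bases were identical between Iglc2 and Iglc3 (96.5%) and 230 between Iglc2 and Iglc1 (73.2%). Of the 403 words of 50 bases in the Iglc3 transcript, 43 (10.7%) occurred unchanged in the Iglc2 transcript, with a longest shared run of 79 bases. Iglc1 shared no such word with Iglc2, and its longest shared run was 19 bases. Reads that fall inside shared runs cannot be told apart, so the value of the Iglc2 row is uncertain. The exact words set no upper limit on this, because Iglc3 has no values here and 96.5% of the aligned bases are identical. How mismatches were treated when reads were assigned is not given in the sources used here. How many of its reads came from Iglc3 was not tested.

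The kappa constant gene is shown as the other side of the balance, with the first 150 bases of its exon (chr6:70726435-70726584, plus strand).
Igkc: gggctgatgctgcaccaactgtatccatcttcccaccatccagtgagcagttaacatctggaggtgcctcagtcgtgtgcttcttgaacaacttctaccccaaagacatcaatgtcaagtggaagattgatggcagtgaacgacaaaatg
The longest run it shared with the Iglc2 transcript was 10 bases, and no word of 50 bases occurred in both.

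For the variable segments, the last 90 coding bases are shown, the end that is joined to a joining segment, with capitals where Iglv2 differs from Iglv1. Iglv3 is given wholly in lower case because it does not align base by base here. The stretches are chr16:19085017-19085106 for Iglv1, chr16:19260401-19260490 for Iglv2 and chr16:19241207-19241296 for Iglv3, on the minus strand.
Iglv1: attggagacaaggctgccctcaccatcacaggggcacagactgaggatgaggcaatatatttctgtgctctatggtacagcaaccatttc
Iglv2: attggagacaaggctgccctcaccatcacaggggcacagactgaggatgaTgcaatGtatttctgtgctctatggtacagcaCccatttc
Iglv3: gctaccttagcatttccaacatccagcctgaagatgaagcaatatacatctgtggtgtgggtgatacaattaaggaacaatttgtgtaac
Iglv1 and Iglv2 differed at 3 of these 90 bases and were identical at 340 of 351 coding bases (96.9%). In contrast, Iglv3 was identical to Iglv1 at 55.3% of 351 aligned bases. Of the 299 words of 50 bases in the Iglv2 transcript, 76 (25.4%) occurred in Iglv1, with a longest shared run of 104 bases. The split of signal between Iglv1 and Iglv2 therefore depends on how shared reads were assigned, which is not given in the sources used here, whereas the Iglv3 transcript shared no word of 50 bases with Iglv1.

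Igkc, which encodes the constant part of every kappa chain, was the most abundant of the 5 genes in each of the 6 B cell libraries. Its adjusted TPM was 914, 1038 and 883 in female B cell libraries 1 to 3 and 1181, 957 and 1045 in male B cell libraries 1 to 3. The mean was 1003 ± 109 (SD, n = 6), and the ranges of the sexes overlapped. By level, Igkc ranked between 54 and 75 of all 41128 genes in these libraries.

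Iglc2, the lambda constant gene with values, came next in every B cell library. Its adjusted TPM was 453, 482 and 483 in females and 522, 421 and 521 in males, with a mean of 480.2 ± 39.1 (SD, n = 6). The females lay within the range of the males. Its rank in B cells was between 130 and 161.

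Iglv1 led the lambda variable segments, at 148, 161 and 187 in female and 201.3, 149 and 183 in male B cells (mean 172 ± 21.8, SD, n = 6). Iglv3 was at 75.8, 73.4 and 66.3 in females and 88.8, 71.0 and 88.0 in males (mean 77.2 ± 9.20, SD, n = 6). Iglv2 was lowest, at 32.2, 38.8 and 45.7 in females and 40.4, 28.0 and 41.9 in males (mean 37.8 ± 6.53, SD, n = 6). The order Igkc, Iglc2, Iglv1, Iglv3, Iglv2 held in 6 of 6 B cell libraries, and no range of values in B cells overlapped with that of its neighbour in this order.

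**Figure D2:**
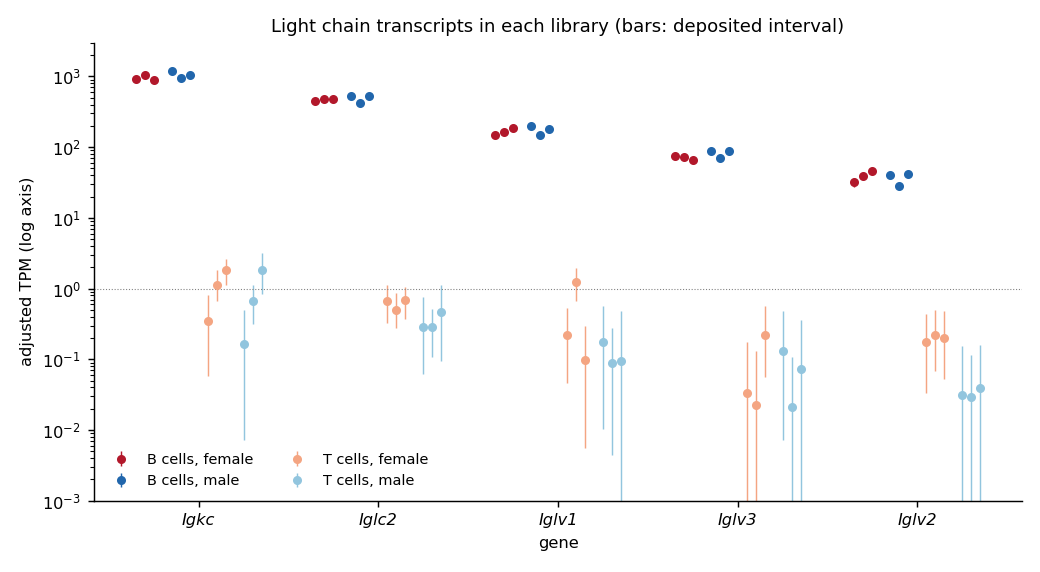
Adjusted TPM of the 5 genes in each of the 12 libraries on a log axis, coloured by cell type and sex, with the deposited lower and upper bounds as bars, some of which run below the axis floor of 0.001. The B cell values of each gene sit together and far above its T cell values, of which only Igkc and Iglv1 have any above 1 (dotted line).

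The deposited intervals of these genes were narrow in B cells. The ratio of upper to lower bound was 1.04 to 1.06 for Igkc and for Iglc2, 1.08 to 1.13 for Iglv1, 1.12 to 1.22 for Iglv3 and 1.17 to 1.33 for Iglv2. Replicates of the same sex nevertheless had separate intervals in 5 of 6 pairs for Igkc, 4 of 6 for Iglc2 and for Iglv1, 3 of 6 for Iglv2 and 2 of 6 for Iglv3. The bounds therefore cover less than the difference between pools. The SD within sex on the log2 scale was 0.14 for Igkc, 0.13 for Iglc2, 0.15 for Iglv3, 0.19 for Iglv1 and 0.28 for Iglv2. For comparison, the median over the 2545 tested genes whose mean log2 value in B cells reached 5 was 0.12.

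B cells were compared with T cells to ask how far light chain transcripts separate the cell types. Igkc was at 0.343, 1.13 and 1.85 in female T cell libraries 4 to 6 and at 0.163, 0.661 and 1.83 in male T cell libraries 4 to 6. Each of these values was below every B cell value, and the lowest B cell library was 477-fold above the highest T cell library. Iglc2 was at 0.669, 0.503 and 0.687 in female and 0.284, 0.284 and 0.472 in male T cells. Its lowest B cell library was 613-fold above its highest T cell library.

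The variable segments were also low in T cells. Iglv1 was at 0.221, 1.23 and 0.0982 in females and 0.177, 0.0878 and 0.0957 in males, so that female T cell library 5 stood apart from the other 5. Iglv2 was at 0.174, 0.221 and 0.201 in females and 0.0314, 0.0296 and 0.0393 in males. Iglv3 was at 0.0339, 0.0229 and 0.221 in females and 0.131, 0.0209 and 0.0728 in males. For all 3 segments, every B cell library was above every T cell library.

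All 5 genes with values were higher in B cells than in T cells (limma, Benjamini-Hochberg adjusted), against 31.4% of all genes tested called higher in B cells and 73% called in either direction. Non-overlap with every B cell library on top, seen for the 5 genes, was found for 24.2% of the genes tested. All 5 passed the filter on low values through the B cell libraries, so this count is a description. The log2 difference was 9.05 for Igkc (SE 0.21, adjusted p = 3.1e-13) and 8.35 for Iglc2 (SE 0.07, adjusted p = 4.3e-17). It was 7.08 for Iglv1 (SE 0.15, adjusted p = 1.4e-13), 6.17 for Iglv3 (SE 0.08, adjusted p = 8.3e-16) and 5.11 for Iglv2 (SE 0.10, adjusted p = 9.3e-14). With a pseudocount of 0.1 the differences grew to between 7.55 and 10.18, since the pseudocount of 1 lies above most of the T cell values.

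The balance of the light chains was measured within each library, where it does not depend on scaling between libraries. The share of Iglc2 in the sum of Igkc and Iglc2, called the lambda constant share, was 33.1%, 31.7% and 35.3% in female B cell libraries 1 to 3. In male B cell libraries 1 to 3 it was 30.6%, 30.6% and 33.3%. The 6 libraries thus lay between 30.6% and 35.3%, with a mean of 32.4% ± 1.84 (SD, n = 6). Per transcript length, Igkc was 2.09 ± 0.17 times (SD, n = 6) as high as Iglc2, from 1.83 in female library 3 to 2.27 in male library 2. Since Iglc1 and Iglc3 have no values in the sum, this is the balance of Igkc against the Iglc2 row. It is not the balance of kappa against all lambda chains, and any Iglc3 reads assigned to the Iglc2 row would be in it.

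The balance was lower for lambda when it was read from the variable segments. The sum of Iglv1, Iglv2 and Iglv3 was 256, 274 and 299 in female and 331, 249 and 313 in male B cells. The sum of the 105 kappa variable rows was 1083, 1477 and 1142 in females and 1388, 1342 and 1473 in males. The lambda share of variable transcripts was therefore 19.1%, 15.6% and 20.7% in females and 19.2%, 15.6% and 17.5% in males. Its mean of 18.0% ± 2.09 (SD, n = 6) lay below the lambda constant share in 6 of 6 libraries, and the ranges of the measures did not overlap.

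**Figure D3:**
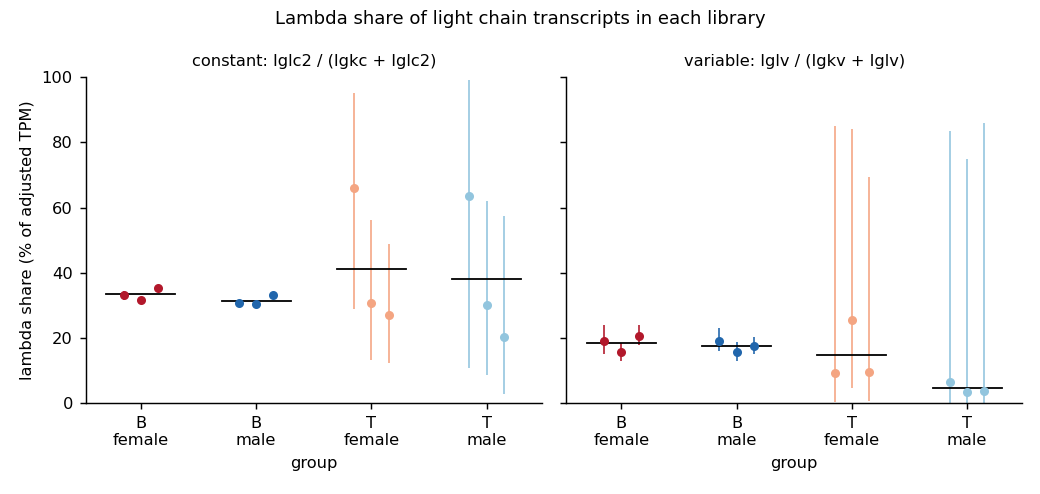
Lambda share in each library, as a percent of adjusted TPM, from the constant genes (left) and the variable segments (right); points are libraries, black lines are group means, and bars take the upper bound of one chain with the lower bound of the other. B cell libraries sit between 30.6% and 35.3% on the left and between 15.6% and 20.7% on the right, while T cell libraries spread widely with bars that span most of the axis.

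The same difference appears as a ratio of variable to constant transcripts. For lambda, the sum of the 3 variable segments over Iglc2 was 0.566 to 0.634 in B cells (mean 0.596 ± 0.0273, SD, n = 6). For kappa, the sum of the kappa variable rows over Igkc was 1.18 to 1.42 (mean 1.31 ± 0.114, SD, n = 6). The lambda ratio was the lower in 6 of 6 libraries, without overlap, although Iglc1 and Iglc3 have no values in its denominator. Iglv1, which lies downstream of Iglc2, made up 59.8% of its numerator on average. Numerator and denominator thus do not cover the same lambda transcripts, and the lambda and kappa ratios are not like measures. The M21 transcript length of Iglc2, in the version named in the table, is 606 bases, and that of Igkc is 532 bases in a later version than the table names. The lengths the authors divided by are not given in the sources used here, and their effect on these ratios was not tested.

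Light chain constant transcripts were also set against Ighm, the heavy chain constant gene of IgM. Ighm ranged from 2408 to 2996 in B cells. The sum of Igkc and Iglc2 over Ighm was 0.560 ± 0.00747 in the 3 female and 0.574 ± 0.0395 in the 3 male B cell libraries (mean ± SD), and the ranges overlapped (exact permutation test, two-sided, p = 0.7). In T cells the same ratio was 0.00208 to 0.0161. Ighm was at 157 to 215 there, or 7.19% of its B cell mean, while Igkc was at 0.0994% and Iglc2 at 0.101% of theirs.

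Among the lambda variable segments, the mix was steady across B cell libraries. Iglv1 took 57.9% to 62.5% of their sum (mean 59.8% ± 1.72, SD, n = 6). Iglv3 took 22.2% to 29.6% (mean 27.0% ± 2.58, SD, n = 6) and Iglv2 took 11.3% to 15.3% (mean 13.2% ± 1.44, SD, n = 6). Female library 3 had the highest share of Iglv1 and of Iglv2 and the lowest of Iglv3. The 3 ranges did not overlap.

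Iglv1 was not only the first of the lambda segments. Its adjusted TPM was above every one of the 105 kappa variable rows in 6 of 6 B cell libraries. The highest kappa row by mean, Igkv10-96, was at 81.3 (range 68.0 to 91.7), followed by Igkv1-117 at 76.6 and Igkv1-135 at 68.2, and these were named after their values were seen. Iglv3 was exceeded by between 0 and 2 kappa rows, and Iglv2 by between 4 and 13, depending on the library. The median of the kappa row means was 6.35. By mean level, Iglv1, Iglv3 and Iglv2 thus ranked 1, 3 and 8 among the 108 variable rows, and the neighbours of Iglv3 in this order, Igkv10-96 and Igkv1-117, overlapped with it in range. Of the 105 kappa rows, 84 passed the filter on low values, and no kappa row was above 0.563 in any T cell library.

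**Figure D4:**
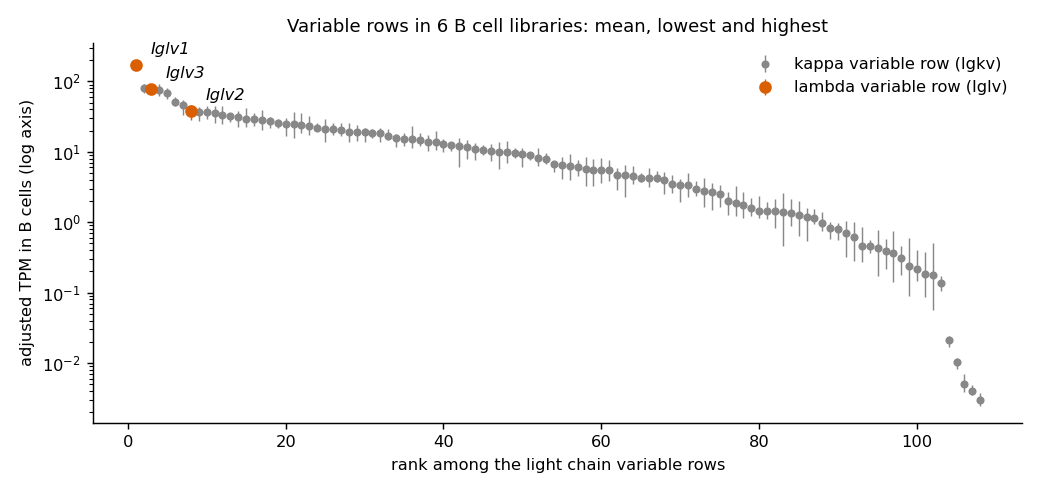
Mean adjusted TPM of the 105 kappa and 3 lambda variable rows over 6 B cell libraries on a log axis, in order of rank, with bars from the lowest to the highest library. Iglv1 stands above all kappa rows at 172, while Iglv3 and Iglv2 sit among the highest kappa rows.

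The sexes were then set against each other, first among B cells. None of the 5 genes passed the threshold in limma, against 0.144% of all genes tested. An unadjusted p under 0.05 was found for 0 of 5, against 2.98% of all genes tested, and none separated the sexes without overlap, against 7.2%. The log2 difference, female minus male, was -0.16 for Igkc (SE 0.29), -0.04 for Iglc2 (SE 0.10), -0.10 for Iglv1 (SE 0.21), -0.19 for Iglv3 (SE 0.11) and 0.09 for Iglv2 (SE 0.15), each with an adjusted p of 1.00 in limma. The fit estimates 1 spread per gene over the B and T cell libraries together, so the low and variable T cell values of Igkc enter its standard error.

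The lambda constant share was 33.4% ± 1.83 in the 3 female and 31.5% ± 1.54 in the 3 male B cell libraries (mean ± SD). The difference of 1.91 percentage points was within the spread between replicates (exact permutation test, two-sided, p = 0.3, adjusted p = 0.875 over 10 ratio tests). The lambda variable share was 18.5% ± 2.61 in females and 17.5% ± 1.81 in males (SD, n = 3 each; exact permutation test, p = 0.7). Shares of Iglv1, Iglv3 and Iglv2 in the lambda segments gave exact permutation p = 1, p = 0.6 and p = 0.2 between the sexes (n = 3 each). With 3 libraries against 3, this exact test cannot go below p = 0.1.

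In T cells none of the 5 genes passed the threshold between the sexes either, against 0.104% of genes tested, and 1 of 5, Iglc2, had an unadjusted p under 0.05, against 2.55% of genes tested. The libraries of the sexes did not overlap for Iglc2 and Iglv2, that is, for 2 of 5 genes against 8.49% of all genes tested. Iglc2 was at 0.503 to 0.687 in females and 0.284 to 0.472 in males (log2 difference 0.27, SE 0.10, unadjusted p = 0.0156, adjusted p = 1.00 in limma). Iglv2 was at 0.174 to 0.221 in females and 0.0296 to 0.0393 in males (log2 difference 0.21, SE 0.15, adjusted p = 1.00 in limma). With a pseudocount of 0.1 the Iglv2 difference passed the threshold (log2 difference 1.16, adjusted p = 0.0147 in limma), and with T cell libraries fitted alone it had an adjusted p of 0.0666. The deposited intervals of all T cell values of Iglv2 overlapped between replicates of the same sex, and their upper bound was 7.16 to 443 times the lower bound, so these values have little precision. The difference between the sex effects of B and T cells was called for none of the 5 genes nor for any other gene (limma, background 0%), with an unadjusted p under 0.05 for 1 of 5 and for 295 of the 12520 genes tested (2.36%). For Iglc2, that 1 gene, it was -0.31 (SE 0.13, unadjusted p = 0.0418, adjusted p = 1.00).

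The light chain signal left in T cell libraries was then read beside B cell markers. The summed adjusted TPM of the 8 B cell markers (Cd79a, Cd79b, Ms4a1, Pax5, Cd22, Blk, Cd74 and H2-Aa) was 5.19 to 34.7 in female and 2.04 to 17.6 in male T cells, or 0.0206% to 0.352% of its B cell mean. It was highest in female library 6 and male library 6, where it was 0.352% and 0.178% of that mean. Igkc was also highest in these libraries, at 0.185% and 0.183% of its B cell mean, and lowest in male library 4, at 0.0163%, where the marker sum was lowest as well. Iglc2 stood at 0.139%, 0.105% and 0.143% in female libraries 4 to 6 and at 0.0591%, 0.0592% and 0.0983% in male libraries 4 to 6. Its point value was thus higher in female libraries 4 and 5, where the marker sum was 0.0605% and 0.0526%, than in male library 6. The deposited Iglc2 intervals of these libraries overlapped, at 0.329 to 1.11, 0.280 to 0.862 and 0.0954 to 1.14 in that order. Their ranking is therefore uncertain. Iglv1 was highest in female library 5, at 0.716%, and Iglv2 was at 0.459% to 0.585% in all female libraries. Iglv3 was highest in female library 6, at 0.286%, followed by male library 4, at 0.170%, which had the lowest marker sum. T cell replicates of the same sex had separate intervals in 2 of 6 pairs for Igkc and for Iglv1. For Iglc2, Iglv2 and Iglv3 this held in 0 of 6 pairs, so the order of libraries is uncertain. The 8 markers differed in their highest T cell value. This was 16.9 for Cd74, 12.3 for H2-Aa, 2.00 for Cd79b, 1.58 for Cd79a and 1.33 for Ms4a1. For Cd22, Blk and Pax5 it was 0.448, 0.150 and 0.00218. The part of B cells in these values was not tested.

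**Figure D5:**
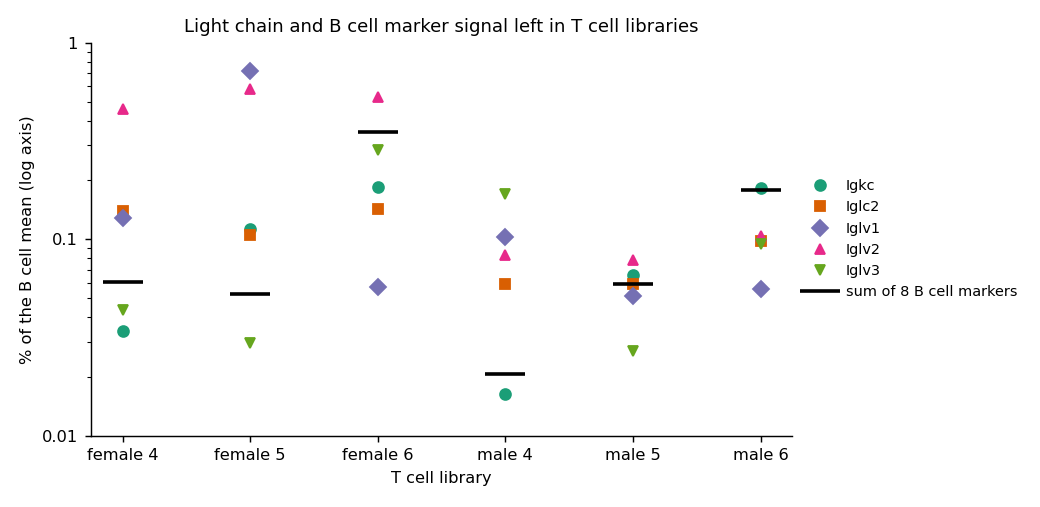
Signal of the 5 light chain genes in each T cell library as a percent of their mean in B cells, on a log axis, with the sum of 8 B cell markers as black bars. Igkc and the marker sum are both highest in libraries 6 of either sex, and all values are below 1%.

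The lambda constant share had no stable value in T cells. It was 66.1%, 30.8% and 27.0% in female and 63.5%, 30.1% and 20.5% in male T cell libraries 4 to 6. Libraries 4 of both sexes stood apart, and they were those with the lowest Igkc. The B cell libraries lay inside the T cell range, and the mean difference of B minus T, -7.22 percentage points, was within the spread (exact permutation test, two-sided, p = 0.45, n = 6 each, smallest possible p 0.0022). When the lambda bounds were set low and the kappa bounds high, the sign of this difference changed to 18.5 points, so no direction can be read from it. Between the sexes, the share was higher in females in 3 of 3 same-numbered T cell pairs, by 3.31 points on average. An exact sign-flip test over pairs gave p = 0.25, the smallest that 3 pairs allow. Taken as unpaired, the sexes overlapped (exact permutation test, two-sided, p = 0.7). The labels do not state that these pools pair, and the main limma fit did not pair them.

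Other genes of receptor assembly were described from a list of 11 names, of which 10 have a row and 5 passed the filter. Of these 5, 4 were higher in B cells and 1 was higher in T cells, against 31.4% and 41.6% of all genes tested, and the median log2 difference was 6.12 against -0.09 over all genes. Cd79a, Cd79b and Vpreb3 were above an adjusted TPM of 1 in fewer than 3 T cell libraries, so they passed the filter through B cells. Dntt was under 1 in all B cell libraries and passed it through T cells. The count and the test of Dntt are therefore descriptions. Cd79a and Cd79b, the signalling partners of surface antibody, were at 417 to 573 and 884 to 1115 in B cells, against at most 1.58 and 2.00 in T cells. Vpreb3, a chaperone-like relative of the surrogate light chain, was at 69.5 to 89.0 in B cells, with no T cell library above 0.131. The surrogate light chain genes Igll1, Vpreb1 and Vpreb2, which stand in for a light chain in precursor B cells, did not reach 0.0315 in any B cell library. Rag1, part of the recombinase that joins light chain segments, was at 0.821 to 1.70 in B cells, with the highest values in female libraries 1 and 3, and Rag2, its partner, was at most 0.0457. Neither passed the filter. Dntt, which adds bases at joints during rearrangement, was higher in T cells, at 6.50 to 7.96, and at most 0.0112 in B cells (log2 difference -2.99, SE 0.06, adjusted p = 6.4e-14 in limma).

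A second list held 17 factors that act at light chain enhancers or variable promoters, with 18 rows because Pou2f1 has 2. Of the 18 rows, 16 were higher in B cells, 1 was higher in T cells and 1 did not pass the threshold, against 31.4% and 41.6% of all genes tested, and the median log2 difference was 3.33. In all T cell libraries 6 of these rows were under an adjusted TPM of 1. Those rows passed the filter through B cells, so this count is a description. Irf4 and Irf8, interferon regulatory factors that bind light chain enhancers together with an Ets factor, had log2 differences of 4.52 (SE 0.11) and 6.01 (SE 0.09). Their Ets partners Spi1 and Spib were at 26.5 to 34.9 and 221 to 271 in B cells, and T cells reached no more than 0.181 and 0.383. Pou2af1, the coactivator at the octamer element of variable promoters, was at 177 to 235 in B cells and 3.30 to 4.37 in T cells. The E protein gene Tcf3 was higher in B cells (log2 difference 1.40, SE 0.07), while for Tcf12 the difference was -0.06 (SE 0.06, adjusted p = 0.368 in limma). Ikzf1, the gene of Ikaros, was the row higher in T cells, at 216 to 229 against 114 to 138 in B cells, a call that was lost when libraries were rescaled to a total of 1000000 (16 rows were then higher in B cells and 0 in T cells). Of the NF-kB subunits, Rel differed by 2.40 (SE 0.09), Nfkb1 by 0.32 (SE 0.05) and Rela by 0.29 (SE 0.06). None of the rows on either list passed the threshold between the sexes.

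Markers of plasma cells, which transcribe light chains at very high levels, were read beside these values. Of 11 plasma cell names, which include Jchain as another name of Igj, 9 rows were tested. Of these, 8 were higher in B cells and 1, Prdm1, was higher in T cells, against 31.4% and 41.6% of all genes tested. Igj, Sdc1, Mzb1, Ighg1, Ighg2b, Ighg2c and Igha were above an adjusted TPM of 1 in fewer than 3 T cell libraries. They passed the filter through B cells, whereas Prdm1 was under 1 in all B cell libraries and passed it through T cells. This count is therefore a description. In B cells, Tnfrsf17 was at 0.0600 to 0.308, Prdm1 at 0.521 to 0.932, and Sdc1 at 5.48 to 6.82. Others were higher there, with Mzb1 at 85.6 to 124 and Xbp1 at 43.7 to 57.3. Ighg1 was at 0.772 to 4.55, Ighg2b at 6.32 to 21.5 and Ighg2c at 1.24 to 13.5 in B cells. Igha reached 12.8 in female B cell library 3. Igj, the joining chain of secreted antibody, was at 50.7, 81.7 and 104 in female and 131, 110 and 110 in male B cells. The library with the highest Igj, male library 1, was also the highest for Igkc, Iglc2, Iglv1 and Iglv3. For Iglc2 it was at 522 against 521 in male library 3, with overlapping deposited intervals. Intervals also overlapped with the next library for Iglv1 and Iglv3. Male library 1 was the highest for Ighm, Cd79b, Ms4a1 and H2-Aa as well. The B cell markers Cd79a, Pax5, Cd22, Blk and Cd74 were highest in other libraries. The lowest Igj was in female library 1, whereas the lowest Igkc was in female library 3 and the lowest Iglc2 in male library 2. The lowest lambda constant shares were in male libraries 1 and 2, at 30.6% in each, and the highest was in female library 3. The part of plasma cells in the light chain values was not tested. Monocyte markers summed to 8.95 to 13.1 in B cells and to 1.06 to 4.55 in T cells. Erythroid markers were more uneven. Their sum was 0.912 to 39.9 in female and 2.96 to 198 in male B cells. In T cells it was 3.61 to 17.7 in females and 2.45 to 43.8 in males.

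The genes whose pattern was most like that of the light chains were found by Pearson's r on the log2 scale over 12235 tested genes outside the antigen receptor segments. Over all 12 libraries these were Lyn, Ncf1 and Swap70 for Igkc (r = 0.999 each) and Btk, Nlrc4 and Fcrla for Iglc2 (r = 1.00 each), where the points share the difference between the cell types. Over the 6 B cell libraries alone they were Zbtb8a, Lin52 and Zfp623 for Igkc (r = 0.991 to 0.992) and Snx9, Ubac2 and Lars for Iglc2 (r = 0.986 to 0.994). Within these 6 libraries, Igkc and Iglc2 correlated with each other less, at r = 0.64. Iglc2 correlated with Iglv1 at r = 0.86, with Iglv2 at r = 0.84 and with Iglv3 at r = 0.68, and Igkc with Iglv3 at r = 0.82 and with Iglv2 at r = 0.21. These values are descriptions of 6 pools that share the scaling between libraries, and the highest of 12235 genes is high by selection.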

How the data were processed

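RNA was extracted from sorted cells, spiked with ERCC transcripts, freed of ribosomal RNA and made into stranded libraries. The submitters' processing notes name Trim Galore, FastQC, STAR and the build mm10. The quantification tool, annotation release, adjustment method and interval level are not given in the sources used here. The deposited signal is adjusted TPM, a length-corrected transcript share that the authors rescaled between libraries, with a lower and an upper bound. These are not counts, no value is 0, and read depth is unknown. Some label fields name genomic DNA, but the series describes RNA sequencing.

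From the deposited signal, log2(adjusted TPM + 1) was fitted with limma 3.58.1 (R 4.3.3) with a mean-variance trend and 1 coefficient per group, for genes at or above an adjusted TPM of 1 in 3 or more libraries, and p-values were adjusted by Benjamini-Hochberg (threshold 0.05). Ratios within a library were compared by exact two-sided permutation tests (scipy 1.17.1). The fits were tested on simulated data. Transcripts were compared with Biopython 1.88, and figures were drawn with matplotlib 3.10.9. The genes, lists and tests were chosen with earlier results of these data known. The genes named are the 7 light chain genes, 2 pathway lists, cell type markers and the 3 genes most alike in pattern.

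Groups and replicate numbers came from the sample labels, and no files held identical libraries. The column names carry a further number that differs between the sexes within each cell type. What it stands for is not given in the sources used here, so it cannot be told apart from sex. The labels number the pools alike in both sexes. Deviations from the group means of same-numbered pools correlated at 0.52 to 0.72 in T cells, so that these numbers were taken to pair the T cell pools, and at -0.34 to -0.04 in B cells. Because Iglc1 and Iglc3 were not analysed here, the planned lambda share used Iglc2 alone, the mix of lambda constant genes was replaced by the mix of lambda variable segments, and the variable to constant ratio was taken over Iglc2. Alternatives comprised other pseudocounts, filters and scalings, the deposited bounds, a replicate block and leaving out each library.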

Additional observations from a re-analysis of the deposited data

How the results depend on the processing

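The B to T difference of each of the 5 genes kept its direction and stayed past the threshold under all 18 alternatives, with the log2 difference of Igkc between 8.90 and 10.18 and that of Iglc2 between 8.32 and 9.74. No sex difference in B cells passed the threshold for any of the 5 genes under any of 19 alternatives. In T cells, Iglv2 passed it with a pseudocount of 0.1 (1.16, 1 gene called). Depth is unknown, and T cell values, mostly under 1, have wide bounds, so little can be read from them.

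Counts of genes called over the whole table moved with scaling and filter. Without a filter, 24591 genes were called between B and T cells, 10985 and 10607 between the sexes in B and T cells, and 11201 for the difference of sex effects, against 9134, 18, 13 and 0 (with 9, 2, 1 and 2 receptor assembly genes in turn, against 5, 0, 0 and 0). With libraries rescaled to a total of 1000000, with or without antigen receptor genes, 44, 26 and 20 genes were called in the last 3 comparisons, the share of B to T calls with more signal in B cells rose from 43.0% to 71.6% or 72.1%, the factor list lost its call higher in T cells, and the median log2 difference of all genes went from -0.09 to 0.26 or 0.27. Median-ratio scaling put that share at 50.3%. A pseudocount of 0.1 gave 24 calls in T cells and 1 for the difference of sex effects, and fitting B cells alone gave 5. Leaving out a library gave 0 to 3 calls for the difference of sex effects (3 without female T cell library 6).

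With the replicate block, no call changed for any of the 5 genes, 9312, 14 and 10 genes were called between B and T cells and between the sexes in B and T cells, and the lambda constant share in B cells differed by 1.91 points and in T cells by 3.31 points (exact sign-flip test over 3 pairs, p = 0.25 for each).

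The mean lambda share in B cells moved from 32.4% to 18.0% with variable segments, and was 31.9% to 32.8% when a library was left out. Its B minus T difference reversed to 18.5 points with low lambda and high kappa bounds and was -36.4 points with the opposite bounds (exact permutation p = 0.0022 for each). These bounds were 10.9% and 99.1% in male T cell library 4, against 29.5% and 31.6% in male B cell library 2. The p-values thus follow from the width of the T cell intervals and do not compare the cell types. With variable segments the B minus T difference was 8.23 points (exact permutation p = 0.048). In T cells that share sets 3 lambda rows against the sum of 105 kappa rows, none above 0.563. Small values summed over many rows enter it, so no conclusion is drawn from this difference. In T cells the sex difference of the share was -6.10 points with high lambda and low kappa bounds and -9.09 to 16.1 points without a library, which splits a same-numbered pair. The sex difference of the Iglv1 share in B cells was 0.0055 points with the lower bounds and -1.42 to 0.896 points without a library. Without a library, sex differences also changed sign for Iglc2 (-0.14 to 0.013) and Iglv2 (-0.093 to 0.21) in B cells and for Igkc (-0.11 to 0.53) and Iglv3 (-0.063 to 0.065) in T cells. So did those of the lambda variable share (-0.0745 to 2.48 points), the Iglv3 share (-3.33 to 0.344 points), the kappa variable to constant ratio (-0.106 to 0.0280) and the light chain to Ighm ratio (-0.0322 to 0.0071), all in B cells. None of these sex differences passed a threshold, and causes were not tested. The planned share without Iglc3 and the sum of Iglc2 and Iglc3 were not run.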
